A study of Mus musculus with 4 samples.

Results

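The genes described here are 8 genes of progenitor cells that share a link to the let-7 microRNAs, namely Lin28a, Lin28b, Hmga1, Hmga2, Igf2bp1, Igf2bp2, Igf2bp3 and Trim71. They were taken by symbol as 8 of the 49997 gene rows in the deposited count files, and 7 of the 8 had at least 1 count. RNA was measured in 4 libraries of wild-type iMOPs (immortalized multipotent otic progenitors from mouse), cells of the kind that forms hair cells, supporting cells and neurons of the inner ear. The 2 neuron libraries came from cells in Neurobasal medium with N21 supplement, to which K03861, a compound that blocks the cyclin-dependent kinase CDK2, was added at 1 µM, and L-glutamine at 2 mM. The 2 proliferating libraries came from cells in DMEM/F12 with N21 supplement, the growth factor bFGF at 20 ng/ml and the antibiotic carbenicillin at 25 µg/ml. In both groups 500 ng of total RNA was depleted of ribosomal RNA. An immortalized line in culture stands for otic progenitors here, and the labels do not say that the libraries numbered 1 and 2 were separate cultures, so p-values measure only the spread between these libraries.

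LIN28A and LIN28B are RNA-binding proteins that hold back the maturation of let-7, and let-7 in turn binds the messengers of Lin28, Hmga2, the Igf2bp genes and Trim71. LIN28 and let-7 therefore form a double-negative loop that separates early progenitors, which are rich in LIN28, from differentiated cells, which are rich in let-7. In the mouse cochlea Lin28b is known as a gene of prosensory progenitors whose level declines as the sensory epithelium differentiates.

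All 9 mature let-7 family sequences in the RefSeq table of GRCm38.p6 carry 1 seed, the bases 2 to 8 by which a microRNA finds its targets. The sequences of let-7a, let-7g and miR-98 are shown to make the shared seed, in capitals, visible beside the bases that vary.
mmu-let-7a-5p: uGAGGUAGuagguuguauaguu
mmu-let-7g-5p: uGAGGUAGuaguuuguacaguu
mmu-miR-98-5p: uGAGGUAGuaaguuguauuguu
LIN28 recognises let-7 precursors partly through the bases GGAG, which stand between the arms of the hairpin in 8 of the 11 let-7 family precursors with both arms in the table. The precursor Mirlet7g on the plus strand at chr9:106178840-106178927 (GRCm38.p6) is shown as one of them, with GGAG in capitals.
Mirlet7g: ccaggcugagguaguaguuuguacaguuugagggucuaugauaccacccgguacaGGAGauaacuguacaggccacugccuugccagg

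The DNA letters opposite the seed, CTACCTC, were searched on the sense strand of the longest annotated 3′ UTR of each gene (GENCODE M21, mm10). The match was present in 8 of the 8 member genes, against 9.03% of 20977 genes with an annotated 3′ UTR. The members were chosen for their link to let-7, so this share and those below describe the choice and are no test of enrichment. Lin28b, Hmga2, Igf2bp1 and Trim71 held 4 matches each, Lin28a held 2, and Hmga1, Igf2bp2 and Igf2bp3 held 1 each. Long UTRs hold more matches: among genes with a 3′ UTR within 20% of the same length, 24.2% had any match beside Lin28b, whose UTR has 4445 bases, and 0.236% had at least as many. The same shares were 15.5% and 0.134% for Hmga2, with 3014 bases, and 29.4% and 0.505% for Trim71, with 5512 bases. For Hmga1, with 1183 bases and 1 match, 8.08% of similar UTRs held a match. The match nearest to the stop codon is printed below for the 6 genes with counts in more than 1 library, in 30 bases each on the gene's own strand with the match in capitals, because it shows the letters that these genes share. A match is a run of letters and was not tested as a site here.
Lin28b, chr10:45381015-45381044, minus strand: acccgggcgggaagtCTACCTCatgcaagc
Hmga1, chr17:27563277-27563306, plus strand: tcctctgttcacaaaCTACCTCtggacggt
Hmga2, chr10:120364217-120364246, minus strand: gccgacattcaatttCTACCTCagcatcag
Igf2bp2, chr16:22059466-22059495, minus strand: acacacaaataaaagCTACCTCaggtgttt
Igf2bp3, chr6:49086780-49086809, minus strand: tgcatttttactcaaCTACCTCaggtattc
Trim71, chr9:114512465-114512494, minus strand: aacattgcctaagtcCTACCTCagcttaaa
In 5 of these 6 windows the match is followed by A, the extended form of a microRNA site, and the window of Hmga1 is the exception. This holds for the match nearest to the stop codon only. Over all matches, 1 of 4 in Lin28b and 1 of 4 in Hmga2 were followed by A. In Trim71 all 4 matches were followed by A, and 2 of them started 3591 and 3617 bases after the stop codon. The lone match of Hmga1 stood in the same 30 letters in Hmga1b, its near-identical copy on chromosome 11.

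**Figure D1:**
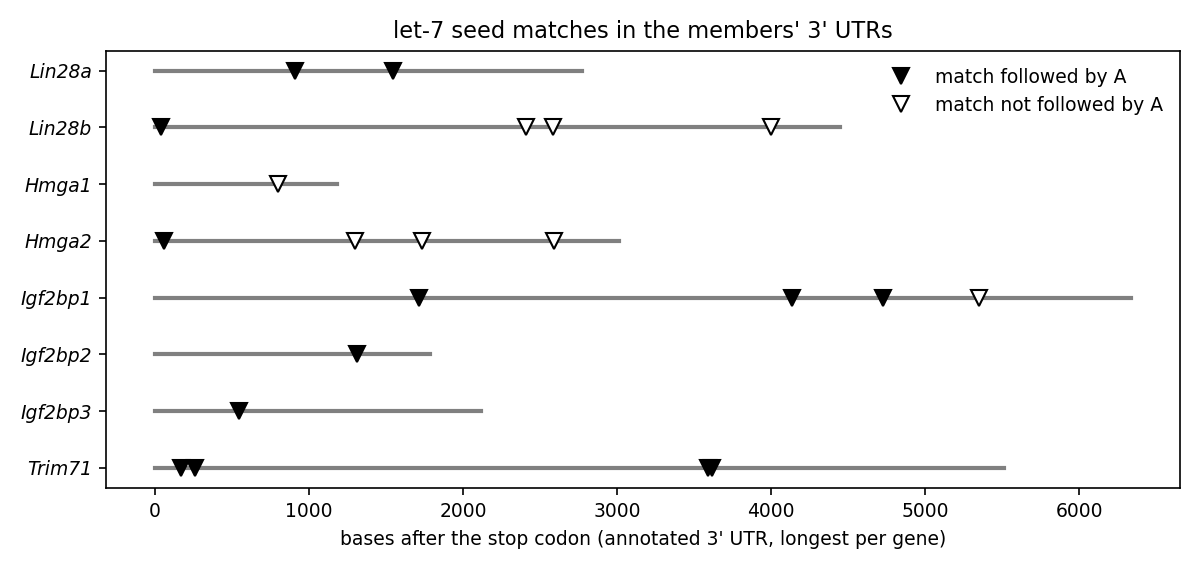
Matches to the let-7 seed along the annotated 3′ UTR of the 8 genes; the x axis is bases after the stop codon, grey lines are the UTRs, filled triangles are matches followed by A and open triangles those followed by another base. Lin28b, Hmga2, Igf2bp1 and Trim71 carry 4 matches each, and the first of Lin28b and of Hmga2 lie 36 and 58 bases after the stop codon.

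Before the members are compared, the libraries themselves need a description. Total counts were 27424909 and 8368169 in the neuron libraries and 3150354 and 32913243 in the proliferating libraries, of which 88.2% to 98.1% fell on 7 ribosomal RNA or rRNA-like genes. These 7 genes were set aside, which left 3241915 and 617872 counts in the neuron libraries and 292302 and 614465 in the proliferating ones. Levels are given as CPM, the counts of a gene per 1000000 of these remaining counts, and a count of 0 allows, at 3 counts, up to 0.925 and 4.86 CPM in the neuron libraries and 10.3 and 4.88 CPM in the proliferating libraries. Several markers went against the labels: the 8 markers of dividing cells, all detected in every library, summed to 2322 and 2714 CPM in the neuron libraries and 352 and 732 CPM in the proliferating libraries. The 10 neuron markers summed to 1419 and 1024 CPM in the neuron libraries and 2258 and 1868 CPM in the proliferating libraries, with Nefl and Nefm at 0 in neuron 2 and proliferating 1. Map2 was the largest part of this sum in every library. Only Map2 and Stmn2 were lower in both neuron libraries, and for the other neuron markers, Tubb3 and Dcx among them, the groups overlap. The 8 otic progenitor markers summed to 2447 and 1486 CPM in the neuron libraries and 3188 and 7398 CPM in the proliferating libraries, carried by Sox2, Nes and Vim, with the defining otic gene Pax8 at 0 in all 4 libraries and Pax2 at 0 in 3. The libraries also stood apart by number, since mitochondrial messengers made up 2.53% and 14.6% of remaining counts in neuron 1 and 2 and 2.35% and 10.6% in proliferating 1 and 2. The names neuron and proliferating below are those of the labels.

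The members together held 219 and 264 CPM in the neuron libraries and 219 and 402 CPM in the proliferating libraries. These sums overlap, and proliferating 2 is the highest. With counts of 2 groups fitted by edgeR's quasi-likelihood test with Benjamini-Hochberg adjustment over 9009 genes, 5 of the 8 members passed the count filter and 0 of them passed the threshold of 0.05, against 0% of all tested genes. The same test had an unadjusted p under 0.05 for 97 genes, none of them a member, and DESeq2 also called 0 genes, with 190 at an unadjusted p under 0.05. With the replicate number as a term in the edgeR model, 0 of the 5 members passed, against 0.966% of all tested genes. In that fit 894 genes had an unadjusted p under 0.05, and among the tested members only Hmga2 did, at 0.0164. Both neuron libraries lay above both proliferating libraries, on scaled CPM, in 1 of the 7 members with a count, Lin28b, against 11.9% of all genes with a count. Both neuron libraries lay below both proliferating libraries in 0 of the 7, against 5.93%. In bulk RNA, fewer cells that make a messenger and less of it per cell cannot be told apart.

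**Figure D2:**
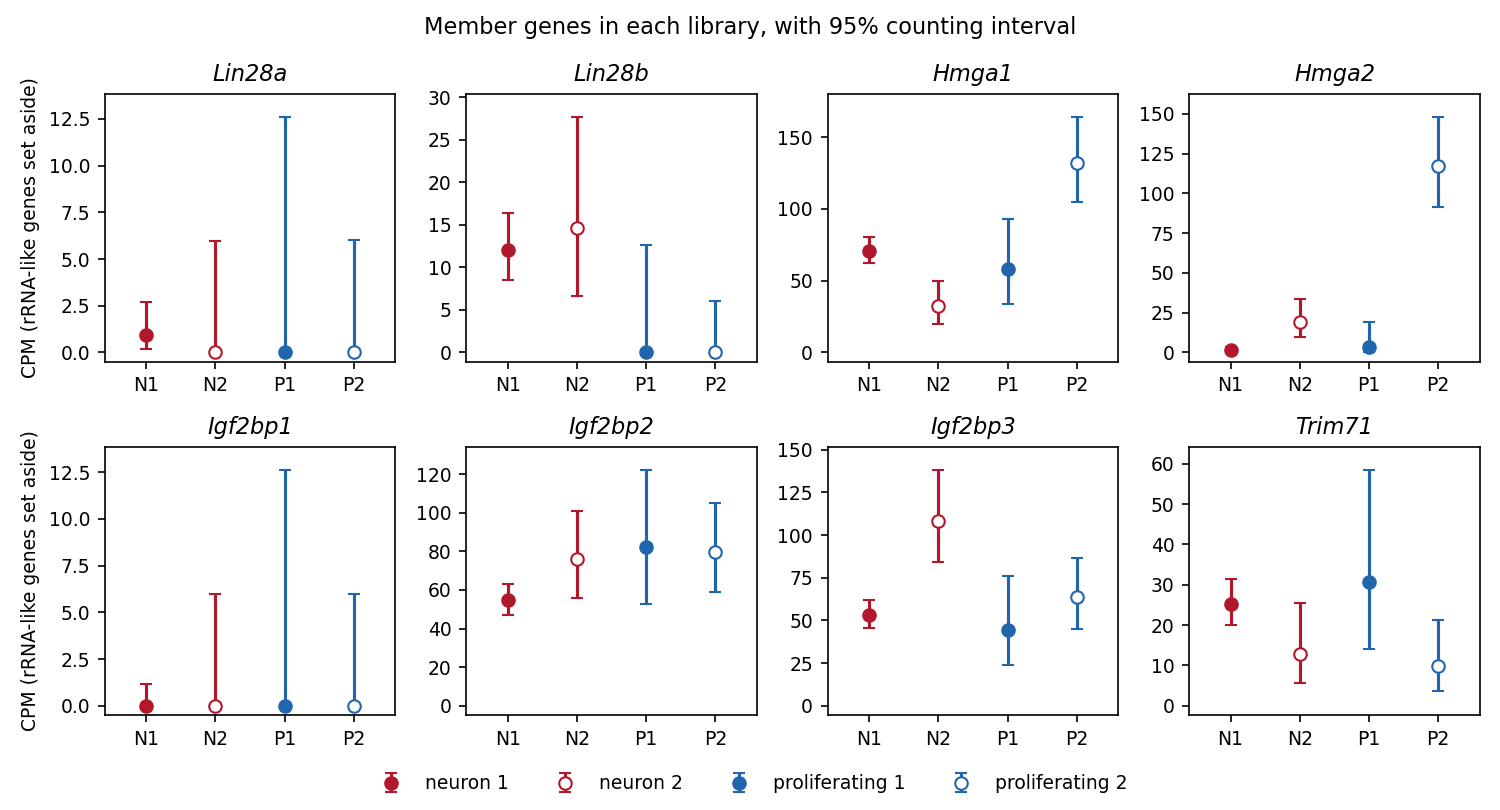
CPM of each of the 8 genes in each library, after 7 rRNA-like genes were set aside; red points are neuron 1 and 2 (N1, N2), blue points are proliferating 1 and 2 (P1, P2), filled for number 1 and open for number 2, with exact 95% counting intervals. Lin28b is the gene with counts in both neuron libraries and in neither proliferating library, while Hmga1 and Hmga2 are highest in proliferating 2.

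Lin28b, the paralog of Lin28a that is known from human cells to hold back let-7 precursors in the nucleus, lies at chr10:45376620-45486395 on the minus strand of mm10. It had 39 counts in neuron 1 and 9 in neuron 2, and 0 counts in proliferating 1 and in proliferating 2. That is 12 CPM (95% counting interval 8.55 to 16.4) in neuron 1 and 14.6 CPM (6.66 to 27.7) in neuron 2. At the floor of 3 counts, a count of 0 allows up to 10.3 and 4.88 CPM in proliferating 1 and 2. The exact 95% counting intervals of these counts of 0 reach higher, to 12.6 and 6 CPM, and 12.6 CPM is above the level of neuron 1. Both neuron libraries were above both proliferating libraries, but the intervals of both neuron libraries reach below the limit of proliferating 1. The level of Lin28b in neuron 2 was 2.98-fold the floor of 3 counts in proliferating 2, a value that leaves out the counting error of neuron 2. The exact counting interval of the ratio of neuron 2 over proliferating 2 started at 1.96. Within number 1 the interval of the same ratio started at 0.909 and includes 1, so a difference between neuron 1 and proliferating 1 was not detectable at this depth. Lin28b did not pass the count filter. Without the filter, edgeR's quasi-likelihood test gave an unadjusted p of 0.026 and an adjusted p of 0.999, and with the replicate number as a term 0.00645 and 0.545. DESeq2, which was run on all genes with a count, gave an unadjusted p of 0.0387 and an adjusted p of 1 for Lin28b. On scaled CPM, 11.9% of all genes with a count were, like Lin28b, higher in both neuron libraries. The 8 markers of dividing cells also summed to more there, at 2322 and 2714 CPM against 352 and 732 CPM in the proliferating libraries. Of these markers Mki67, Top2a, Ccnb1 and Cdk1 were higher in both neuron libraries, while the groups overlap for Aurkb, Pcna, Mcm2 and Mcm5. The 8 otic progenitor markers went the other way, with sums of 2447 and 1486 CPM in the neuron libraries and 3188 and 7398 CPM in the proliferating libraries. The part of either set in this result was not tested.

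Lin28a, which recruits enzymes that add uridines to let-7 precursors, was at chr4:134003330-134018841 on the minus strand. It had 3 counts in neuron 1 and 0 in neuron 2, and 0 in both proliferating libraries. A level of 0.925 CPM in neuron 1 equals the floor of that library, which lies below the floors of the other 3, so no difference in Lin28a could be detected at this depth.

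Hmga2, an architectural chromatin protein that binds AT-rich DNA and is the best known let-7 target, lies at chr10:120361275-120476469 on the minus strand. It had 5 counts in neuron 1 and 12 in neuron 2, and 1 count in proliferating 1 and 72 in proliferating 2. As CPM these were 1.54 and 19.4 in the neuron libraries and 3.42 and 117 in the proliferating libraries. The libraries numbered 2 were high and those numbered 1 low in both groups, and the groups overlap. Within number 2, neuron over proliferating was 0.166 (95% counting interval 0.0819 to 0.308), or 6.03-fold lower in neuron 2 (3.25 to 12.2). Within number 1 the ratio was 0.451 (0.0504 to 21.3), from 5 counts in neuron 1 and 1 in proliferating 1, an interval that includes 1. The libraries of 1 group differed by more: neuron 2 was 12.6-fold above neuron 1 (4.13 to 45.6), and proliferating 2 was 34.3-fold above proliferating 1 (5.95 to 1371). The group means were 10.5 ± 12.6 CPM in neuron and 60.3 ± 80.4 CPM in proliferating libraries (SD, n = 2 each). edgeR gave a log2 fold change of -2.52 (SE 1.62, adjusted p 1), and -2.12 (SE 0.87, adjusted p 0.329) with the replicate number as a term. The unadjusted p of these edgeR fits was 0.146 and 0.0164. An alternative fit with limma voom gave an unadjusted p of 0.00893, and 0.00595 with the number as a term, and neither passed after adjustment. Without proliferating 2 the log2 fold change of Hmga2 was 1.90 (SE 3.29), and without neuron 2 it was -5.65 (SE 2.13), neither of them called. The pseudogene Hmga2-ps1 held 10 counts in neuron 1 and 0 in the other 3 libraries, so reads in neuron 1 may be split between gene and copy.

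Hmga1, the sister protein with the same AT-hook fold, lies at chr17:27556497-27563674 on the plus strand and overlaps AI413582 on the other strand. Its CPM were 70.9 (95% counting interval 62.1 to 80.7) in neuron 1 and 32.4 (19.8 to 50) in neuron 2, and 58.2 (33.9 to 93.1) in proliferating 1 and 132 (105 to 164) in proliferating 2. Proliferating 2 was the highest and neuron 2 the lowest, with both libraries numbered 1 between them, and the groups overlap. Within number 1 the ratio of neuron over proliferating was 1.22 (0.745 to 2.13), which includes 1. Within number 2 it was 0.246 (0.143 to 0.404), or 4.07-fold lower in neuron 2. The within-number values therefore differ in direction, and edgeR's log2 fold change was -0.99 (SE 1.00, adjusted p 1), or -0.85 (SE 0.65, adjusted p 0.778) with the replicate number as a term. Hmga1b, whose reads could be split with those of Hmga1, held 46 and 0 counts in the neuron libraries and 6 and 3 in the proliferating libraries. Its share of the counts of both was 16.7% and 0% in the neuron libraries and 26.1% and 3.57% in the proliferating libraries, so both libraries numbered 1 had the larger share. With the counts of Hmga1 and Hmga1b summed and the number as a term, the log2 fold change was -0.94 (SE 0.64, adjusted p 0.729).

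Within number 2, Hmga1 and Hmga2 were both lower in the neuron library by an amount beyond counting error. This compares single libraries, and the share of all genes with such a difference was not counted. Libraries of the same group also differed beyond counting error for both genes, with Hmga1 in proliferating 2 over proliferating 1 at 2.27 (1.33 to 4.08). Of the counts of Hmga1, Hmga1b and Hmga2, Hmga2 made up 1.78% and 37.5% in the neuron libraries and 4.17% and 46.2% in the proliferating libraries. This share separates the replicate numbers and not the groups.

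Igf2bp2, which binds messengers of metabolism and growth and is the family member that many adult tissues keep, lies at chr16:22059009-22163299 on the minus strand. Its CPM were 54.6 (46.9 to 63.3) in neuron 1 and 76.1 (55.9 to 101) in neuron 2, and 82.1 (52.6 to 122) in proliferating 1 and 79.7 (59 to 105) in proliferating 2. Both neuron values are below both proliferating values on this scale, but not after TMM scaling (44.7 and 94 CPM in neuron, 74.2 and 87.3 CPM in proliferating), where the groups overlap. On CPM without TMM scaling, the ratio was 0.665 (0.433 to 1.07) within number 1 and 0.954 (0.625 to 1.45) within number 2. Both of these intervals include 1. After TMM scaling, and set against the median tested gene, the log2 differences within numbers 1 and 2 were -0.74 and 0.13. These differ in direction, and counting intervals were not computed on that scale. edgeR's log2 fold change was -0.23 (SE 0.97, adjusted p 1), or -0.30 (SE 0.62, adjusted p 0.958) with the number as a term. Among the 5 tested members Igf2bp2 varied least between libraries of 1 group on CPM without TMM scaling. There neuron 2 over neuron 1 was 1.39 (0.988 to 1.93) and proliferating 2 over proliferating 1 was 0.971 (0.585 to 1.66). After TMM scaling this did not hold for the neuron libraries, where Hmga1 had 58.1 and 40 CPM and Trim71 had 20.7 and 16 CPM.

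Igf2bp3, the oncofetal member of the family that is mostly silent after birth, lies at chr6:49085223-49214957 on the minus strand and overlaps Malsu1 on the other strand. Its CPM were 53.4 (45.7 to 61.9) in neuron 1 and 108 (84 to 138) in neuron 2, and 44.5 (23.7 to 76.1) in proliferating 1 and 63.5 (45.1 to 86.8) in proliferating 2. Neuron 2 was the highest library, and neuron 1 lay between the proliferating libraries, so the groups overlap. Neuron over proliferating was 1.2 (0.683 to 2.3) within number 1 and 1.71 (1.13 to 2.6) within number 2, above 1 in both and beyond counting error in number 2. The neuron libraries differed from each other by 2.03-fold (1.51 to 2.71), more than either of these ratios. edgeR's log2 fold change was 0.68 (SE 1.02, adjusted p 1), or 0.57 (SE 0.63, adjusted p 0.891) with the number as a term, and without neuron 2 it was -0.33 (SE 1.56).

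Igf2bp1, at chr11:95957163-96005940 on the minus strand, encodes a protein that binds Myc and Actb messengers in embryonic tissue, and its 3′ UTR carries 4 let-7 seed matches. It had 0 counts in all 4 libraries, which allows up to 0.925 and 4.86 CPM in the neuron libraries and 10.3 and 4.88 CPM in the proliferating libraries. Among the Igf2bp counts, Igf2bp3 made up 49.4% (Wilson 95% interval 44.2 to 54.6) and 58.8% (49.6 to 67.4) in the neuron libraries and 35.1% (21.8 to 51.2) and 44.3% (34.4 to 54.7) in the proliferating libraries. Both neuron shares were above both proliferating shares, with intervals that overlap within each number.

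Trim71, the RNA-binding ubiquitin ligase that is named LIN-41 in worms and was among the founding let-7 targets there, lies at chr9:114507133-114564369 on the minus strand. Its CPM were 25.3 (20.1 to 31.4) in neuron 1 and 12.9 (5.59 to 25.5) in neuron 2, and 30.8 (14.1 to 58.4) in proliferating 1 and 9.76 (3.58 to 21.3) in proliferating 2. Both libraries numbered 1 were above both libraries numbered 2, and the groups overlap. The ratio was 0.821 (0.412 to 1.86) within number 1 and 1.33 (0.403 to 4.64) within number 2, and both include 1. edgeR's log2 fold change was -0.032 (SE 1.38, adjusted p 1), and 0.01 (SE 0.82, adjusted p 0.998) with the number as a term.

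**Figure D3:**
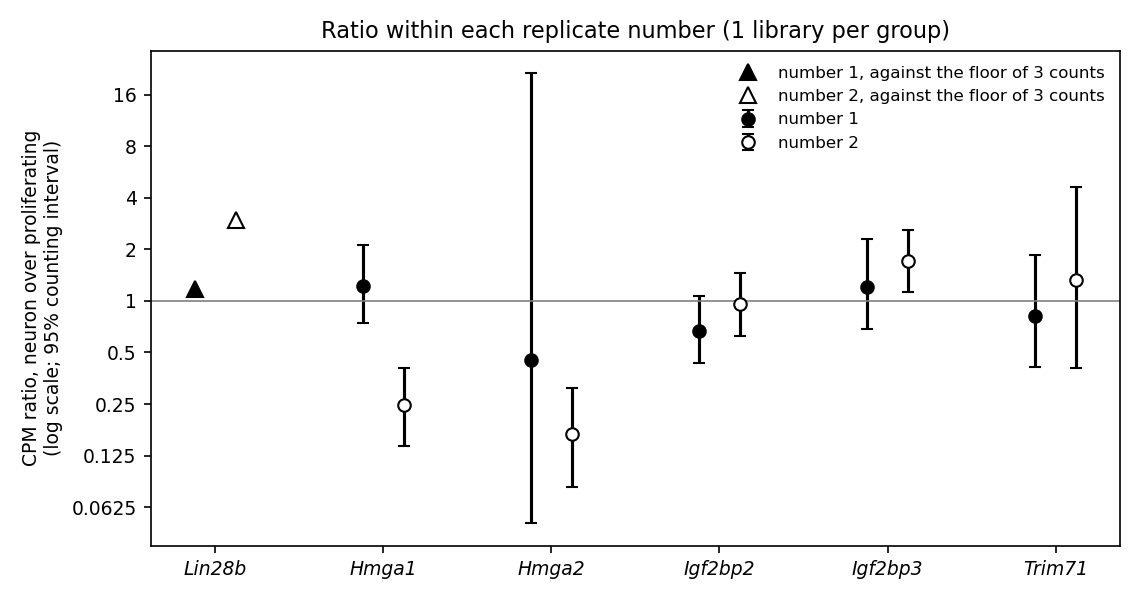
Ratio of CPM, neuron over proliferating, within number 1 (filled) and within number 2 (open), on a log axis with 95% counting intervals; triangles set Lin28b against the floor of 3 counts, since its proliferating libraries had 0 counts. Ratios and intervals are for CPM without TMM scaling. Within number 2 the intervals of Hmga1 and Hmga2 lie below 1 and that of Igf2bp3 above 1. Within number 1 the interval of each of the 5 genes drawn as points includes 1. The share of all genes with an interval that leaves out 1 was not counted.

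Set against the median tested gene, the log2 difference within number 1 and then number 2 was -0.77 and -2.32 for Hmga2 and 0.08 and 0.96 for Igf2bp3. It was 0.11 and -1.79 for Hmga1, -0.74 and 0.13 for Igf2bp2, and -0.43 and 0.55 for Trim71. Thus 2 of the 5 tested members had the same sign in both numbers, against 54.7% of all tested genes.

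Divided by gene length, the members could be ranked within a library in counts per kilobase of gene length, still per 1000000 remaining counts. Hmga1 had 17.3 and 7.91 in the neuron libraries and 14.2 and 32.2 in the proliferating libraries. Igf2bp2 had 14 and 19.5 in the neuron libraries and 21.1 and 20.5 in the proliferating libraries, and Igf2bp3 had 8.45 and 17.2 in the neuron libraries and 7.04 and 10 in the proliferating libraries. These 3 genes led in neuron 1, neuron 2 and proliferating 1, while Hmga2, with 0.404 and 5.09 in the neuron libraries and 0.896 and 30.7 in the proliferating libraries, came next to Hmga1 in proliferating 2. Trim71 followed with 4.87 and 2.49 in the neuron libraries and 5.92 and 1.88 in the proliferating libraries. Lin28b, at 1.37 and 1.66 in the neuron libraries, stood near the low end. As group means, Igf2bp2 at 16.8 ± 3.89, Igf2bp3 at 12.8 ± 6.16 and Hmga1 at 12.6 ± 6.67 in neuron libraries (SD, n = 2) do not differ beyond their spread. In proliferating libraries Hmga1 at 23.2 ± 12.7, Igf2bp2 at 20.8 ± 0.428 and Hmga2 at 15.8 ± 21.1 (SD, n = 2) do not either.

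For the 3 members with at least 10 counts in every library, the genes with the most similar profile were found by the root mean square difference of log2 CPM over the 4 libraries, each profile centred on its mean. Closest to Hmga1 were Kdelr2 (0.028), Eif1 (0.068) and Isca1 (0.072), with a median of 1.05 over the pool of 8447 genes. Closest to Igf2bp2 were Wdr47 (0.021), Frs2 (0.028) and Rpl36a (0.053), with a pool median of 0.852. Closest to Igf2bp3 were Socs6 (0.017), Strn (0.037) and Arpp19 (0.041), with a pool median of 0.923. These values describe likeness over 4 libraries alone. They are the smallest found in a search of 8447 genes, so the pool median is no measure of how small they would be without a link. Counting error was left out of them, and in proliferating 1 Igf2bp3 had 13 counts and Socs6 had 14.

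The let-7 side of the loop was hardly covered by these libraries. The 12 precursor rows of let-7 and miR-98 summed to 17 and 4 counts in the neuron libraries and 0 and 2 counts in the proliferating libraries, and 5 of the 12 rows had any count. Mature microRNAs were not measured by these gene counts. Mir100hg, a host transcript of let-7a-2, had 43.5 and 66.4 CPM in the neuron libraries and 127 and 24.4 CPM in the proliferating libraries. Mir99ahg, a host of let-7c, had 15.4 and 45.3 CPM in the neuron libraries and 44.5 and 4.88 CPM in the proliferating libraries. For Mir100hg the proliferating libraries lay on either side of the neuron libraries, and for Mir99ahg the groups overlap. edgeR's quasi-likelihood test gave log2 fold changes of -0.27 (SE 1.08) for Mir100hg and 0.59 (SE 1.34) for Mir99ahg, neither called.

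Other genes of the pathway were read from 6 lists, in which 0 genes were called in either direction by edgeR, with or without the replicate number as a term. The list of let-7 processing factors and LIN28 partners had 20 of 24 genes tested and a median log2 fold change of 0.094, beside -0.033 over all tested genes. The 20 of 28 let-7 targets tested outside the members had a median of 0.083, and the 22 of 25 genes of the insulin-like growth factor axis had a median of -0.18. The 19 of 19 genes of IGF2BP messenger complexes and m6A had a median of 0.15, and the 10 of 10 other high mobility group proteins one of 0.56. Leaving out 1 library turned the direction of 4 of these medians. Without neuron 2 the median was -0.12 for the let-7 processing list, -0.44 for the let-7 targets and -0.27 for the IGF2BP complexes, with -0.099 over all tested genes. Without proliferating 1 it was -0.18 for the IGF2BP complexes and 0.43 for the growth factor axis, with 0.39 over all tested genes. Without proliferating 2 it was 0.64 for the let-7 targets and 1.09 for the IGF2BP complexes, with 0.11 over all tested genes.

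Differences within numbers, neuron minus proliferating, were also counted as above or below that of the median tested gene. Of all tested genes, 27.4% were above it within both numbers and 27.4% below it within both. Centring on the median makes these shares equal. Of the let-7 processing list 8 of 20 genes were above within both and 7 below, and of the let-7 targets 7 of 20 were above and 3 below. Of the growth factor axis 6 of 22 were above within both and 7 below, and of the IGF2BP complexes 10 of 19 were above and 6 below. Of the other high mobility group proteins 5 of 10 were above within both and 2 below.

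Among the let-7 targets, Nras, a RAS protein of growth factor signalling, had 973 and 1492 CPM in the neuron libraries and 363 and 256 CPM in the proliferating libraries. The groups did not overlap, and edgeR's log2 fold change was 2.12 (SE 1.14, adjusted p 1), or 2.01 (SE 0.62, adjusted p 0.0932) with the number as a term. Myc, the growth-promoting transcription factor whose messenger IGF2BP proteins bind, had 3547 and 1080 CPM in the neuron libraries and 1043 and 1063 CPM in the proliferating libraries. Its neuron 1 value stands above the other 3, which lie close together, and the log2 fold change was 1.02 (SE 1.18). Rdx, a linker of actin to the membrane, had 246 and 588 CPM in the neuron libraries and 178 and 303 CPM in the proliferating libraries, which overlap.

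Of the most abundant processing factors and partners, Hnrnpa1, which is known from human cells to act on the let-7a precursor, had 803 and 581 CPM in the neuron libraries and 380 and 394 CPM in the proliferating libraries. The groups did not overlap, with an edgeR log2 fold change of 0.84 (SE 1.04, adjusted p 1). Syncrip, an RNA-binding protein found in IGF2BP complexes of human cells, had 431 and 950 CPM in the neuron libraries and 127 and 649 CPM in the proliferating libraries, high in both libraries numbered 2. Ddx5, a helicase of the microprocessor, had 655 and 1521 CPM in the neuron libraries and 585 and 2700 CPM in the proliferating libraries, with the same order of numbers. Among IGF2BP partners and cargoes, Pabpc1, the poly(A)-binding protein, had 1827 and 4480 CPM in the neuron libraries and 1276 and 4279 CPM in the proliferating libraries. Hnrnpu, a nuclear RNA-binding protein, had 1243 and 2293 CPM in the neuron libraries and 571 and 1592 CPM in the proliferating libraries. Actb, the cargo by which the family was first named a zipcode-binding protein, had 3537 and 280 CPM in the neuron libraries and 3503 and 775 CPM in the proliferating libraries. These 3 follow the replicate number more than the group. Pabpc1 and Hnrnpu were higher in number 2 within each group, as Hmga2 was, while Actb was higher in number 1.

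Of the insulin-like growth factor axis, Igf1r, the receptor and a let-7 target, had 178 and 141 CPM in the neuron libraries and 541 and 129 CPM in the proliferating libraries, with proliferating 1 apart from the rest. Pik3r1, a regulatory subunit of the lipid kinase that signals from this receptor, had 189 and 248 CPM in the neuron libraries and 154 and 293 CPM in the proliferating libraries. For both genes the groups overlap. Of the other high mobility group genes, Hmgb2, a chromatin protein of dividing cells, had 264 and 227 CPM in the neuron libraries and 30.8 and 120 CPM in the proliferating libraries. Both neuron libraries were above both proliferating ones, as for the summed markers of dividing cells, whose part in this result was not tested, and edgeR's log2 fold change was 1.63 (SE 1.05, adjusted p 1), or 1.92 (SE 0.63, adjusted p 0.13) with the number as a term. Hmgn1, a nucleosome-binding protein, had 364 and 170 CPM in the neuron libraries and 130 and 169 CPM in the proliferating libraries, which differ little in number 2. Ssrp1, a subunit of the histone chaperone FACT, had 373 and 125 CPM in the neuron libraries and 168 and 192 CPM in the proliferating libraries.

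The 14 pluripotency genes, among which Lin28a is often counted, had 0 members that passed the count filter. Dnmt3b, a DNA methyltransferase of early embryos, had 74 and 8 counts in the neuron libraries and 3 and 7 in the proliferating libraries. Klf4, which is also used outside pluripotent cells, had 13 and 2 counts in the neuron libraries and 3 and 4 in the proliferating libraries. Nanog, a core pluripotency factor, had 0 and 4 counts in the neuron libraries and 0 in both proliferating libraries, and Pou5f1 and Sall4 had 0 in all 4.

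**Figure D4:**
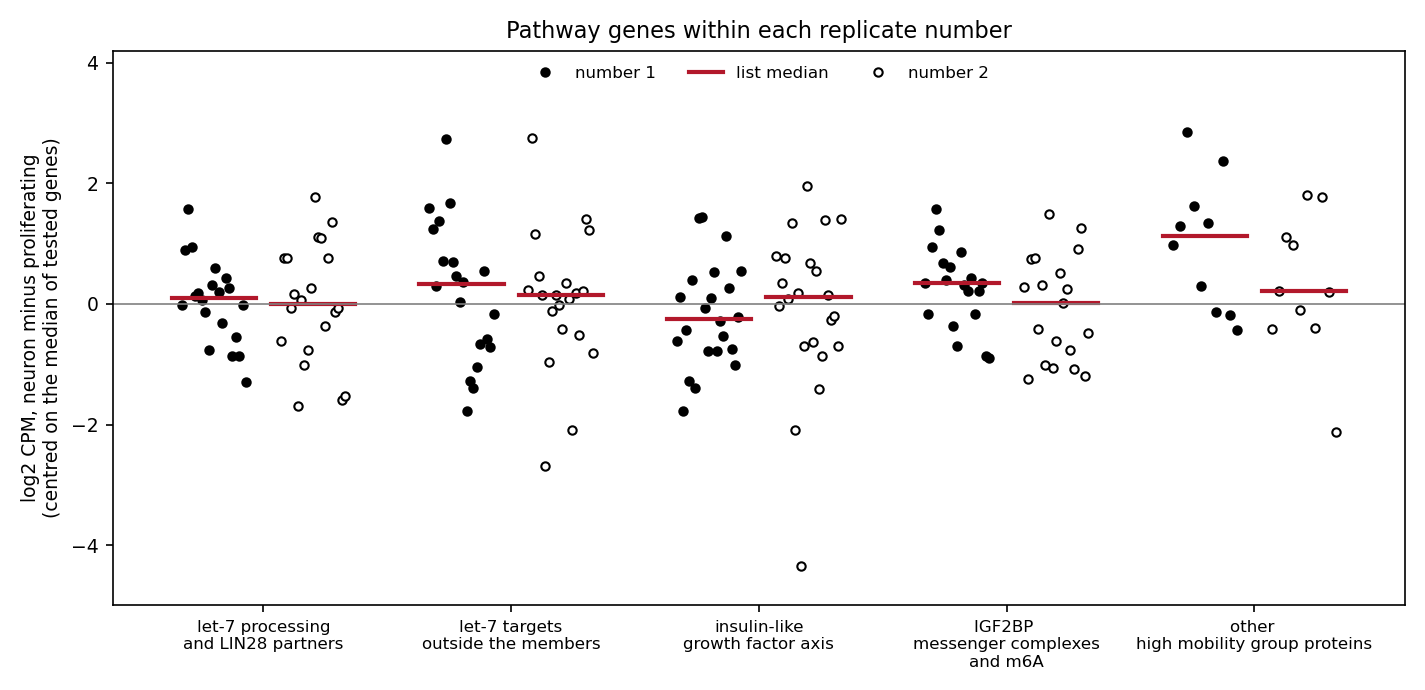
Difference of log2 CPM, neuron minus proliferating, for each tested gene of 5 pathway lists within number 1 (filled) and number 2 (open), set against the median tested gene; red bars are list medians. The medians of the let-7 processing list are 0.10 and 0.0074 within numbers 1 and 2, and those of the other high mobility group proteins are 1.14 and 0.21.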

How the data were processed

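RNA from 4 libraries, 2 neuron and 2 proliferating, was compared by gene. The deposited counts are raw read counts, with one file per library and one row per gene. The authors also deposited RPKM values, which equal counts divided by gene length and library total within a tolerance of 0.001 for 9098 of 9098 genes checked, so those totals include ribosomal RNA. The submitters' processing notes name mm10 as build and featureCounts, HISAT2, DESeq2 and SAMtools as tools. Their versions, the annotation and whether counting used strand are not given in the sources used here. Reads of overlapping or antisense genes, such as AI413582 with Hmga1 and Malsu1 with Igf2bp3, could therefore not be told apart.

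Lars2, Mir6236, Rn18s-rs5, AY036118, Gm15564, mt-Rnr1 and mt-Rnr2 were set aside, and CPM refers to the remaining counts. Groups were compared on these counts with edgeR 4.0.16 under R 4.3.3 (quasi-likelihood test, TMM, filterByExpr, Benjamini-Hochberg over 9009 genes, threshold 0.05), with group alone in the model and, beside it, with the replicate number as a term because the libraries stood apart by number. Log2 CPM used a prior count of 2. Counting intervals are exact Clopper-Pearson intervals for CPM and Wilson intervals for shares, at 95%. They and the floor of 3 counts per library cover counting error only, since reads are not independent molecules. Positions and 3′ UTRs came from GENCODE M21 (mm10), and microRNA sequences from RefSeq (GRCm38.p6).

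The members and lists were chosen with earlier results of these data known. The genes named are the members, near-identical copies, let-7 precursors and their hosts, and from each list any gene past the threshold in either fit and the 3 with the highest mean log2 CPM. Of these, 1 gene is not reported here. Pou5f1 and Sall4 were named after their values were seen, for their counts of 0. DESeq2 1.42.0, limma 3.58.1 (voom, and log2 RPKM with a pseudocount of 0.1 or 1), other scalings and filters, kept rRNA-like genes and leaving out each library were alternatives.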

Additional observations from a re-analysis of the deposited data

How the results depend on the processing

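No member passed the threshold under any setting that gave it an adjusted p, and the lowest was 0.153 for Hmga2, with limma voom and the block. DESeq2 with the block gave no adjusted p for Lin28a, Lin28b, Hmga2 and Trim71. Igf2bp1 was never tested, and Lin28a and Lin28b were tested under some settings only. The replicate numbers were not shown to pair samples, since the labels give no shared culture and there are 2 pairs, but libraries of 1 number deviated together (r = 0.74 over 9009 genes). With the replicate block, 87 genes were called (58 higher and 29 lower in neuron), against 0 with group alone. The block with DESeq2 size factors called 32, with library totals alone 55, with rRNA-like genes kept 57, without a count filter 43, with DESeq2 73 and with limma voom 160. The other 13 settings without a block, leaving out each library among them (0 to 0), called 0 genes. With the block and Hmga1 and Hmga1b summed, an alternative chosen after seeing the data, 43 genes were called higher and 20 lower. The causes of these differences were not tested.

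Directions of uncalled log2 fold changes turned as follows. With log2(RPKM + 0.1) Hmga1 had 0.28, Igf2bp2 0.73 and Trim71 0.56, and with log2(RPKM + 1) they had 0.19, 0.33 and 0.11; these settings moved the median of all genes to 0.81 and 0.34, so that Hmga1 was at -0.53 and Igf2bp2 at -0.08 relative to the median of the first. Trim71, at -0.032 in the reported fit, had 0.075 with rRNA-like genes kept, 0.087 without a filter (median of all genes 0.47), 0.40 with voom (median 0.19), and under the block 0.01, with totals alone 0.017, with rRNA-like genes kept or no filter 0.11, and with DESeq2 0.036. Leaving out 1 library gave -1.50 to -0.069 for Hmga1, -5.65 to 1.90 for Hmga2, -0.84 to 0.16 for Igf2bp2, -0.33 to 1.23 for Igf2bp3 and -0.56 to 0.83 for Trim71. A lone library is there assumed to vary like the other group. The list medians ranged, over the libraries left out, from -0.12 to 0.20 for let-7 processing, -0.44 to 0.64 for let-7 targets, -0.60 to 0.43 for the growth factor axis, -0.27 to 1.09 for IGF2BP complexes and 0.22 to 0.82 for other high mobility group proteins. Counts of 0 to 3 limit Lin28a and Igf2bp1, and counts of 0 in both proliferating libraries limit Lin28b.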
